A study of Mus musculus with 41 samples.

Results

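The 6 control lung mRNA arrays compared the RNA of a whole mouse lung piece with a pooled RNA of cultured mouse cells, spot by spot on the same slide. They were chosen by their labels (control, lung, mRNA) and are 6 of the 41 arrays of the series. Each array held the lung RNA of 1 mouse, labelled with Cy5, and the same commercial universal mouse reference RNA, made from 11 mouse cell lines and labelled with Cy3. The mice were adult female C57BL/6 animals (C57BL/6BomTac in the methods of the study) that had been time-mated but had not conceived. They breathed filtered air for 1 h per day on 11 days and were killed 5 days later, and the labels give their age only as that of gestation day 4. The lung piece was cut at random from the left lung, so it held airway, vessel and blood as well as alveoli, and its cell types were not separated. Mice 24 and 26 lay on the first slide, mice 27 and 29 on the second and mice 32 and 34 on the third (the slide is the hybridization block of the labels). The 8 control liver arrays of the same air-exposed mice and of 2 further ones, mice 37 and 45, used the same reference and dyes and served as a second tissue on the same scale. Each value below is a log2 ratio, so that 1 stands for a 2-fold higher signal in lung than in the reference, and an error is the SD over mice unless it is named otherwise.

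The gas-exchange surface of the lung is lined by flat alveolar type 1 cells and by cuboid type 2 cells, which make surfactant, and lies against a dense net of capillaries. The conducting airways carry club cells, which secrete secretoglobins and metabolise foreign compounds, and ciliated cells, which move mucus. Most cells of an adult lung rest between divisions, whereas cell lines in culture divide. A ratio to such a reference ranks genes by how strongly a tissue carries them compared with dividing cultures, and it does not give an absolute level.

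On each lung array the Cy5 signal stood well above background at 61.3 to 66.4% of the spots and the Cy3 signal at 58.9 to 60.8%, and no spot was saturated. The log2 ratios of any 2 lungs correlated across probes at 0.970 to 0.990 and those of a lung and a liver at 0.443 to 0.495 (probes are not independent replicates). Of 25431 probes tested, 5237 (20.6%) differed by more than 2-fold from the reference in limma's treat test at an adjusted p of 0.05, 2640 of them higher and 2597 lower in lung. The split depended on the normalization, since the share of higher calls was 50.4% in the authors' values but 61.3% after loess without background correction and 60.8% after normexp correction. Against no difference at all (eBayes), 87.1% of the probes passed, and for that reason a call below always means more than 2-fold. With 1 probe per gene, 1956 of 14191 genes were higher (13.8%) and 1642 lower (11.6%) in lung, and the median gene lay at -0.09, with the 5th and 95th percentiles at -1.69 and 2.41. In the same test 2501 of 14790 genes (16.9%) were higher in lung than in liver and 1681 (11.4%) lower. Over probes, 55.6% of the calls between the tissues were higher in lung, and 70.9% after median centring. No dye swap was made, so dye and sample cannot be told apart in a ratio to the reference. A dye effect of a probe that is the same on all arrays drops out of the difference between lung and liver. However, the 2 tissues were read with different versions of the scanner software (9.5.3.1 and 10.1.1.1). The Cy3 signal of the same reference stood well above background at 59.5 to 70.5% of the spots on the liver arrays. Tissue and such differences between the array sets cannot be told apart.

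The highest ratios belonged to products of the airway and alveolar epithelium and of blood vessels. Among genes well above background in both channels on all 6 arrays, Scgb3a2, a secretoglobin of airway secretory cells, stood first. Its ratio in mice 24, 26, 27, 29, 32 and 34 was 7.91, 7.55, 7.57, 7.58, 7.36 and 7.35, a mean of 7.55 ± 0.20 or 188-fold (adjusted p = 2.9e-12), and it lay between 0.10 and 0.66 in the 8 livers. Next came Sparcl1, a secreted glycoprotein of vessel walls (7.53 ± 0.18), and Mal2, a membrane protein of polarised epithelia (7.13 ± 0.13). Mal2 was nearly as high in liver, at 6.03 ± 0.34 (n = 8), and that difference was not called (adjusted p = 0.83). The surfactant protein Sftpd followed at 6.91 ± 0.17 and the club cell genes Sec14l3 and Scgb1a1 at 6.88 ± 0.43 and 6.65 ± 0.17. For Scgb3a2, Sec14l3 and Scgb1a1 the Cy3 signal on the lung arrays was 8.81, 8.98 and 11.5 (log2). Their liver means over the same reference were 0.28, -0.03 and 0.30. Whether that Cy3 signal came from the reference RNA was not tested, so these folds may be too low. Hc, the gene of complement component C5, reached 6.72 ± 0.24 in lung and 7.33 ± 0.28 in liver (n = 8), where its protein is mainly made. The other 5 of the 12 were 3 genes of endothelium (Calcrl, Ptprb and Cdh5), the calprotectin subunit S100a9 and the alveolar type 1 gene Clic5, with means from 6.08 to 6.57. Hc, Mal2 and Ptprb were the 3 of these 12 that were not higher in lung than in liver by the test. Each value is that of the brightest probe. Other tested probes were lower, at 1.23 for Calcrl, 2.70 for Cdh5, 3.89 for Clic5 and 0.62 to 3.15 for Ptprb. Those of Sec14l3 ranged from 2.98 to 4.94, and that of Sparcl1 was at 6.81.

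**Figure D1:**
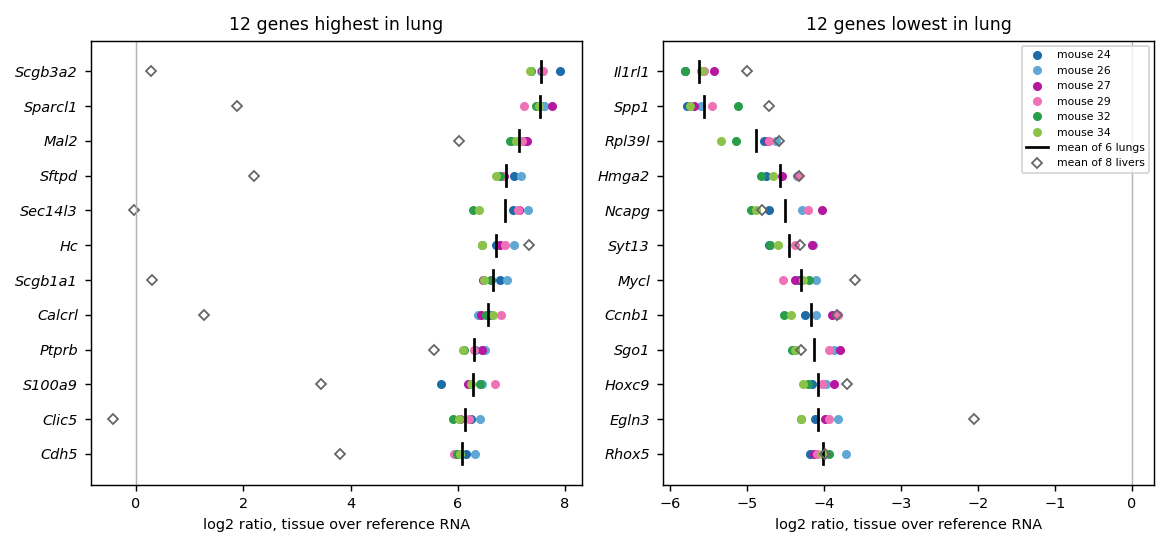
The 12 genes with the highest (left) and the lowest (right) mean log2 ratio of control lung over reference RNA (x axis) among called genes well above background in both channels. Dots are single mice, the bar is the mean of 6 lungs and the diamond is the mean of 8 control livers. The 6 mice lie close together, and 9 of the 12 genes on the left have a liver mean below 4, whereas on the right the livers lie less than 1 from the lungs except for Egln3.

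Genes of the alveolar epithelium were high in every mouse. Of 13 type 2 cell genes, all tested, 12 were called higher (13.8% of all genes were) and 0 lower, with a median of 3.55 (median of all genes tested -0.09) and per-mouse medians from 3.45 to 3.56. Sftpc, the surfactant protein made only in type 2 cells, ran from 4.55 through a median of 4.98 to 5.15 over the 6 mice, while no liver exceeded 0.08. Its mean difference from liver was 4.92 (SE 0.08, adjusted p = 8.9e-18). The Cy5 and Cy3 signals of Sftpc on the lung arrays were 19.2 and 14.2 (log2), with a liver mean of 0.01 over the same reference. Whether that Cy3 signal came from the reference RNA was not tested, so the ratio may be too low. Napsa, a protease of surfactant protein processing, lay between 3.53 and 3.57 in all 6 lungs, and Nkx2-1, the transcription factor that marks lung epithelium, between 2.93 and 3.11. The remaining gene was Etv5, a transcription factor, at 0.49 ± 0.17. In liver the list had a median of 0.01, and 11 of the 13 genes were higher in lung by the test (16.9% of all genes were).

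Of the 10 type 1 cell genes 9 were called higher (13.8% of all genes were). The list had a lung median of 3.80 and a liver median of -0.89. Clic5 (6.14 ± 0.18) and Akap5, an anchoring protein of protein kinase A (5.36 ± 0.20), led the list, followed by Ager, the receptor for advanced glycation end products (4.30 ± 0.19), and the water channel Aqp5 (4.25 ± 0.17). Cav1, which builds caveolae, lay on opposite sides of the reference in the 2 tissues. It ran from 2.56 to 2.83 in lung and from -5.56 to -5.08 in liver, a difference of 8.03 (SE 0.07, adjusted p = 2.7e-20). Another tested probe of Cav1 lay at 1.02 in lung and was not called against the reference. Pdpn, a surface glycoprotein often used to stain type 1 cells, was at the level of the reference (0.14 ± 0.12). These whole-tissue values cannot tell more cells of a type from more RNA per cell.

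In the airways all 12 club cell genes were higher than the reference (13.8% of all genes were), with a median of 5.05, the highest of the 24 lists. Cbr2, a carbonyl reductase, varied little (5.24 ± 0.08) and was at -2.49 in liver. Several drug-metabolising genes of the list were shared with liver. Cyp2f2 had 5.33 ± 0.32 in lung and 5.57 in liver, Aldh1a1 5.11 ± 0.30 and 5.19, and Cyp4b1 4.99 ± 0.16 and 4.24, none of them called between the tissues. Of the 12 genes, 8 were called higher in lung than in liver, the secretoglobins among them, and 1 lower (16.9% and 11.4% of all genes were). Of 21 genes of ciliated cells on the array 20 were tested and 14 were called higher than the reference (13.8% of all genes were). Their median was 2.17 against 0.01 in liver. Dynlrb2, a dynein light chain, was highest (4.51 ± 0.13), and Foxj1, the master regulator of motile cilia, lay between 2.73 and 2.82 in all mice. Dnaic2 was not well above background in either channel on any array, and Spag6 only in the reference.

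All 24 endothelial genes were called higher in lung than in the reference (13.8% of all genes were). Of these, 18 were higher in lung than in liver (16.9% of all genes were), an organ that has its own endothelium. Cdh5, the cadherin of endothelial junctions, ran from 5.93 through 6.03 to 6.33 in lung and from 3.47 to 4.17 in liver, so the tissues did not overlap, and the difference was 2.27 (SE 0.10, adjusted p = 5.2e-09). Tmem100 had 5.23 ± 0.17 in lung and -0.21 in liver, and Car4, a carbonic anhydrase bound to the capillary surface, 3.33 ± 0.27 and -0.02. The receptor Kdr (4.86 ± 0.24 and 4.47) and Robo4 (4.60 ± 0.19 and 4.38) were close to their liver values and were not called between the tissues. Nos3, the endothelial nitric oxide synthase, was the lowest of the list at 1.42 ± 0.21, and its call against the reference was lost after median centring (adjusted p = 0.17). The call of Tie1 between lung and liver (1.98 ± 0.11 against 0.81, adjusted p = 0.026) was lost when the mouse was fitted as a block (adjusted p = 0.13).

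Genes of connective tissue were divided. Of 14 fibroblast genes, 8 were higher and 3 lower than the reference (13.8% and 11.6% of all genes were), with a median of 1.49. Limch1, an actin-binding protein (5.26 ± 0.24), and Mfap4, a protein of elastic fibres (4.89 ± 0.14), were highest. The fibrillar collagen genes Col1a1 (-1.80 ± 0.25) and Col1a2 (-1.45 ± 0.24) and fibronectin, Fn1 (-2.75 ± 0.25), were lower than in the reference. Col1a1 was nevertheless higher in lung than in liver, where it lay between -5.67 and -4.91 (difference 3.44, SE 0.13, adjusted p = 2.1e-11), whereas Fn1 was lower in lung than in liver (-0.62). Among 11 genes of smooth muscle and pericytes 5 were higher, led by the smooth muscle myosin Myh11 (3.20 ± 0.27) and calponin, Cnn1 (3.20 ± 0.52), which was at -2.0 in liver. Acta2, smooth muscle actin, had -0.50 ± 0.32, and another of its probes lay above 0.

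Immune and blood cell genes were present to different degrees. Against the reference 13.8% of all genes were higher and 11.6% lower. Of 13 macrophage genes 9 were higher and 2 lower. Lyz2, lysozyme, had 5.66 ± 0.24, and Chil3, a secreted chitinase-like protein of alveolar macrophages, ran from 4.75 to 5.63 in lung and from -4.65 to -3.31 in liver, a difference of 9.36 (SE 0.19, adjusted p = 6.2e-17). The alveolar macrophage receptor Siglecf was well above background only in lung, at least 1.96 above the reference on the log2 scale. Marco (4.73 ± 0.22 in lung and 4.25 in liver) and the complement genes C1qa and C1qb did not differ by the test between the tissues, while Msr1 (-1.63 ± 0.15) and Cd68 (-1.74 ± 0.12) were lower than in the reference. Of 10 genes of antigen presentation by MHC class II 9 were higher, from 1.34 ± 0.14 for H2-DMa to 3.98 ± 0.06 for H2-Aa. Of the lymphocyte genes 6 of 13 tested genes of T and NK cells were higher (Nkg7 2.68 ± 0.22) and 2 lower (Cd3g -1.31 ± 0.18 and Cd5 -1.24 ± 0.17, both calls lost after loess without background correction, adjusted p = 0.21 and 0.89), and 3 of 7 tested B cell genes were higher (Ighm 4.80 ± 0.23). Of 8 tested neutrophil genes 4 were higher. Of 4 tested red cell genes 3 were higher, among them Hba-a1 at 4.24 ± 0.30 and 4.34 in liver (copies of the globin genes are nearly identical and may share signal). Of the 9 hepatocyte genes on the array 5 were tested in lung and 2 were called higher, Alb (from 0.75 to 2.49) and Ahsg (from 1.08 to 2.41), and all 9 were lower in lung than in liver, with medians of 0.44 and 5.25.

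Of 19 transcription factors that shape the lung, 14 were higher than the reference and 14 higher than liver (13.8% and 16.9% of all genes were). Their median over the reference was 2.65 (Nkx2-1, Sox17, Sox18 and Tcf21 also stand in the lists above). Foxa2, a forkhead factor of endoderm, was highest and close in both organs, whose epithelia come from endoderm, at 5.45 ± 0.06 in lung and 5.44 ± 0.29 in liver (n = 8). Erg, an endothelial factor, had 4.37 ± 0.17 in lung and 2.33 in liver, while another tested probe of Erg lay at 0.97 in lung and was not called. The T-box factors Tbx2, Tbx3 and Tbx5 lay between 2.77 and 3.68, but Tbx4 had 0.49 ± 0.16.

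**Figure D2:**
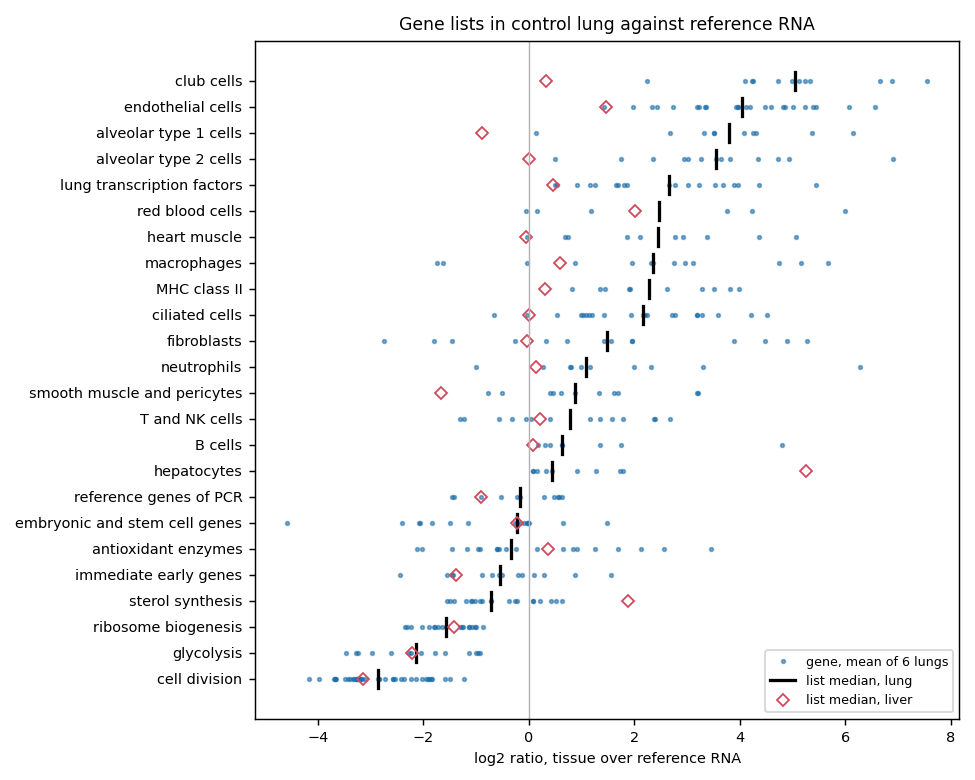
Mean log2 ratio of lung over reference RNA (x axis) of each gene of the 24 lists (dots, means of 6 lungs), with the list median in lung (bar) and in liver (diamond), ordered by the lung median. Club cell and endothelial genes have the highest medians (5.05 and 4.04) and genes of cell division the lowest (-2.86), where the liver median (-3.15) is close by.

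On the other side stood the machinery of dividing cells. All 39 genes of cell division were tested and all 39 were lower in lung than in the reference (11.6% of all genes were), with a median of -2.86 and per-mouse medians from -3.05 to -2.69. The liver median was -3.15, and 5 of the 39 were called higher and 1 lower in lung than in liver (16.9% and 11.4% of all genes were). Ccnb1, the cyclin that drives entry into mitosis, had -4.25, -4.11, -3.90, -3.82, -4.53 and -4.43 in mice 24, 26, 27, 29, 32 and 34, a mean of -4.17 ± 0.29, which is 18.0-fold lower (adjusted p = 8.9e-10). Cenpe, a kinetochore motor, had -3.97 ± 0.24, Ncapg, a condensin subunit outside the list, -4.51 ± 0.39, and the proliferation marker Mki67 -3.68 ± 0.31. Other probes gave -3.41 and -2.91 for Ccnb1, -1.80 and -1.34 for Cenpe and -1.03 for Ncapg. The smallest differences were those of E2f1 (-1.23 ± 0.14) and of Hmmr, a hyaluronan-binding protein of the spindle (-1.50 ± 0.33). Hmmr was not well above background in Cy5 on any array, so only a bound can be given there, at least 2.56-fold lower. The calls of both ended after normexp correction (adjusted p = 1 for E2f1 and 0.22 for Hmmr). Among the helicase subunits that license replication, Mcm4 was at -1.83 ± 0.12 in lung and -3.86 in liver and Mcm6 at -2.37 ± 0.25 and -4.36, both called higher in lung than in liver.

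Promoters of such genes are known for a CCAAT box and for the cell cycle homology region with the core TTTGAA. To show what the genes with the lowest ratios have upstream, the 100 bases before the start site are printed here for 3 of them and for Hmmr, near the upper end of the list (RefSeq, build GRCm38.p6, 5′ to 3′ on the strand of the gene, capitals marking TTTGAA or CCAAT on either strand, where the reverse of CCAAT reads ATTGG).
Ccnb1, chr13:100786487-100786586, minus strand: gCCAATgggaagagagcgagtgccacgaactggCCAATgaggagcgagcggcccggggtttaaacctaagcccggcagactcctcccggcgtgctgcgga
Cenpe, chr3:135212463-135212562, plus strand: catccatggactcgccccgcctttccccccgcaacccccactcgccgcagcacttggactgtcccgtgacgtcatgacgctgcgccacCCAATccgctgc
Ncapg, chr5:45669825-45669924, plus strand: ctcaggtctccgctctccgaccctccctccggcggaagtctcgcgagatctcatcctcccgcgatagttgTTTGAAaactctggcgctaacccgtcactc
Hmmr, chr11:40733438-40733537, minus strand: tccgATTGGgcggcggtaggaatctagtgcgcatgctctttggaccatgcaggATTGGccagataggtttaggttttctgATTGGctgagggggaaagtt
Windows of the same length before Sgo1, a guardian of sister chromatids (-4.13 ± 0.29), and before E2f1 hold neither motif. Windows from 250 bases before to 50 after each start site were searched on both strands, and a gene counted if any of its windows held the motif. Of the 39 cell division genes 34 had an entry, and 17 of them (50%) held TTTGAA compared with 20.2% of all 27025 genes with an entry. CCAAT stood in 25 (73.5%) compared with 41.1% of all, and both motifs in 16 (47.1%) compared with 8.97% of all. These shares are descriptions without a test, and a match is not a measured binding site. For comparison CTCAAG, the core bound by NKX2-1, stood in 3 of 10 type 2 cell genes, 2 of 9 club cell genes and 18.0% of all genes with an entry.

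Genes for growth were also lower in lung. Of 20 genes of ribosome biogenesis 15 were called lower and 0 higher (median -1.57, liver -1.42). They ran from -0.87 ± 0.16 for Rrs1 to -2.35 ± 0.17 for Npm1, nucleophosmin. Of 14 glycolysis genes 10 were lower and 0 higher (median -2.14, liver -2.21). Against the reference 11.6% of all genes were lower and 13.8% higher. Between the tissues 5 of the 14 (Aldoa, Hk1, Pkm, Pfkp and Gpi1) were higher in lung and 2 lower (16.9% and 11.4% of all genes were). These 2 were the lowest in lung, Pgk1 (-3.47 ± 0.10, liver -2.27) and Eno1 (-3.28 ± 0.14, liver -1.93). The glucose transporter Slc2a1 was at -3.23 ± 0.20. Egln3, a prolyl hydroxylase of the oxygen-sensing pathway, ran from -4.30 to -3.83 in lung and from -2.28 to -1.86 in liver, a difference of -2.02 (SE 0.09, adjusted p = 1.3e-08).

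Sterol synthesis set lung and liver apart. Of 20 genes 4 were lower than the reference and 0 higher (11.6% and 13.8% of all genes were). The median was -0.72 in lung and 1.88 in liver, and all 20 were lower in lung than in liver (11.4% of all genes were). Cyp51, which removes a methyl group from lanosterol, ran from -1.59 to -1.41 in lung and from 1.52 to 2.11 in liver (difference -3.32, SE 0.08, adjusted p = 5.4e-14). Sqle, squalene epoxidase, was lowest in lung (-1.56 ± 0.22), and Ebp, a sterol isomerase, highest (0.63 ± 0.13, liver 3.54).

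**Figure D3:**
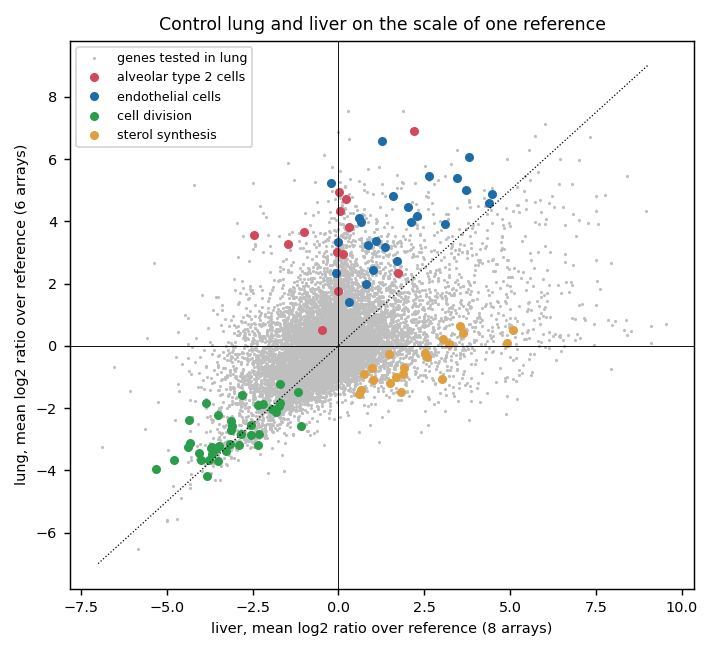
Mean log2 ratio over reference RNA in control lung (y axis, 6 arrays) against control liver (x axis, 8 arrays), with every gene tested in lung in grey and genes of 4 lists in color. The dotted line marks equal ratios. Genes of cell division lie along it at the lower left, sterol synthesis genes below it on the liver side and alveolar type 2 and endothelial genes above it.

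Of genes bound to early development 7 of 10 tested were lower than the reference (11.6% of all genes were). Hmga2, a chromatin protein of embryonic and transformed cells, was at -4.58 ± 0.20. Igf2bp3, an RNA-binding protein, was at -2.40 ± 0.23, well above background only in the reference and at least 4.66-fold lower in lung. Sox2, which adult airway epithelium also carries, was the 1 gene called higher (1.47 ± 0.45). It was well above background only in lung, so it entered the test through the channel where it is high and only a bound can be given, at least 2.78-fold higher. Its call was lost without mouse 24, 32 or 34 (adjusted p = 0.067 to 0.069), after normexp correction (adjusted p = 0.13) and after median centring (adjusted p = 0.056). Nanog, Dppa3, Zfp42 and Lin28a were not well above background in either channel on any array. The lowest ratios of the whole comparison were those of Il1rl1, the receptor of interleukin 33 (-5.63 ± 0.15, 49.6-fold lower), and of Spp1, osteopontin (-5.56 ± 0.25), with liver at -5.00 and -4.72. They are followed by Rpl39l, a copy of a ribosomal protein gene (-4.89 ± 0.28), the synaptotagmin Syt13 (-4.45 ± 0.26), Mycl, a relative of Myc (-4.30 ± 0.15), and the homeobox gene Rhox5 (-4.02 ± 0.17). This order covers only genes well above background in both channels and uses the brightest probe of each gene. Other tested probes gave -1.18 for Rpl39l, -0.47 for Syt13, -3.50 and -2.54 for Il1rl1 and -3.00 and -1.94 for Hmga2.

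Hox genes, which set position along the body, were described together because Hoxc9 (-4.09 ± 0.15) was among the 12 lowest, a choice made after its value was seen. Among the 15 on the array with numbers 1 to 5, Hoxa4 (1.33 ± 0.17), Hoxa5 (1.64 ± 0.20) and Hoxb5 (1.64 ± 0.14) were the highest, at -0.22, -0.54 and -0.68 in liver, and Hoxd4 (-1.50 ± 0.17) was the lowest. Of the 8 with numbers 6 to 8, 5 were tested and 3 called lower, with Hoxc6 at -2.96 ± 0.23. Of the 15 with numbers 9 to 13, 9 were tested and 7 called lower (11.6% of all genes were). However, Hoxa10, Hoxa11, Hoxb9, Hoxb13 and Hoxc10, and Hoxd8 of the group before, entered the test only through the reference channel, where they are high. Their calls could hardly go the other way and add no support. Among the 7 calls only Hoxa9 and Hoxc9 were well above background in both channels on all 6 arrays. The highest mean of the 15 was 0.06, for Hoxd12, which was not well above background in either channel. Of these 15, 5 were bright in the reference and not well above background in lung on any array (1.2% of all genes were). Among these 5 were Hoxa11 (-2.53 ± 0.28) and Hoxb9 (-2.51 ± 0.35), at least 5.09-fold and 4.87-fold lower in lung.

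**Figure D4:**
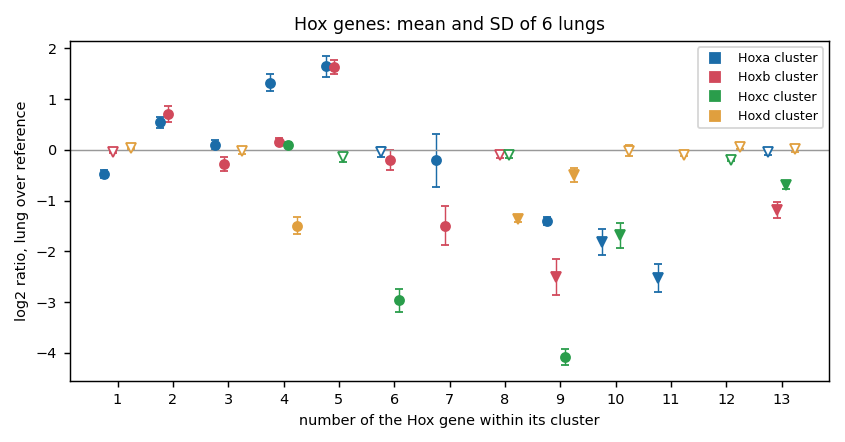
Mean log2 ratio of 6 lungs over reference RNA (y axis, error bars SD) of each Hox gene by its number in the cluster (x axis), colored by cluster. Circles are genes well above background in lung on all 6 arrays and triangles all others, and open symbols were not tested. The highest genes are Hoxa5 and Hoxb5, both at 1.64, and the lowest is Hoxc9 at -4.09.

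Some genes were seen in 1 channel only, and their ratios are bounds. A probe was well above background in both channels on all 6 arrays in 51.3% of cases (21131 of 41174), in lung on all 6 but never in the reference in 3.11% (1280), the other way round in 1.30% (535) and in neither channel on any array in 27.2% (11215). The bounds use channel values without background correction and can therefore differ from the ratios, and where the ratio gave the smaller fold, that fold is printed. Hpgd, which inactivates prostaglandins, was at least 107-fold higher in lung, Lyve1, a hyaluronan receptor of lymphatic vessels, at least 52.9-fold, Il18r1, a chain of the interleukin 18 receptor, at least 34.5-fold and Gucy1a1, a subunit of the nitric oxide receptor, at least 33.5-fold. Plbd1 and the potassium channel Kcnj8 were at least 23.8-fold and 16.7-fold higher. Plbd1 was higher still in liver (6.12 against 4.57 in lung, adjusted p = 6.4e-05). In the other direction the reference exceeded lung at least 14.7-fold for 3110039M20Rik, 10.5-fold for Bcat1, a branched-chain aminotransferase, 8.50-fold for Prl2c3, a placental prolactin relative with close copies, 7.38-fold for Ott, 7.03-fold for Mgarp and 5.19-fold for Prl, prolactin. These 12 entered limma's test through their bright channel alone, so its calls (largest adjusted p = 6.1e-07) add nothing to the bounds. Each bound is that of 1 probe. Other tested probes gave log2 ratios of 4.59 for Hpgd, 2.47 for Lyve1, 0.70 for Kcnj8 and -0.72 for Bcat1. Those of Gucy1a1 lay between 1.30 and 3.48, those of Prl2c3 at -2.88 and -0.44, and that of Ott at -2.57.

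Most genes hardly varied between the mice. Over genes well above background in both channels the SD had a median of 0.13 and a 95th percentile of 0.29, and 19 genes exceeded 1. The genes that varied most fell into a few groups that moved together. Adipoq, adiponectin, had 4.19 and 4.27 in mice 24 and 26, 0.97 and 0.60 in mice 27 and 29, and 3.53 and 4.63 in mice 32 and 34. Car3, a carbonic anhydrase of fat and muscle, had 4.32, 4.34, 1.17, 0.73, 3.92 and 4.82 in the same order, and Fabp4, which carries fatty acids, 4.84, 4.92, 2.58, 2.20, 4.09 and 5.10. In each of these genes of fat cells both mice of the second slide lay below all others. Their defining gene Plin1, perilipin, was well above background in lung on all 6 arrays and in the reference on none, and ranged from 0.17 to 4.27. Plin1 entered the test through the channel where it is high, so only a bound can be given, a mean at least 4.12-fold higher in lung. It was not called (adjusted p = 0.13). The calls without mouse 27 or without mouse 29 (adjusted p = 0.035 and 0.031) each left out a mouse with a low value and add nothing to the bound.

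The 10 heart muscle genes had per-mouse medians of 3.48, 3.54, 0.83, 1.52, 3.07 and 2.35, and the same 2 mice were the lowest. Myl7, an atrial myosin chain, ran from 4.16 to 5.75, and Sln, sarcolipin, from 2.23 to 5.65. Of the 8 tested genes of the list 5 were called higher than the reference (13.8% of all genes were). Ryr2 was not well above background in either channel on any array. Of 10 tested genes of skeletal muscle 7 were highest in mouse 34, but Myh4, a fast myosin (1.41, compared with 2.28 to 2.96 in mice 24, 26 and 32), Actn3 and Atp2a1 were not. Mouse 34 was also highest for 9 of 14 glycolysis, 5 of 6 tested fat cell, 7 of 20 antioxidant and 7 of 20 ribosome biogenesis genes. It was highest for 0 of 8 heart muscle and 2 of 39 cell division genes. The share of all genes that were highest in mouse 34 was not counted. In mouse 34 Tnnc2, a fast troponin, had 2.69 compared with -1.63 to -1.33 in the other 5 mice, and Acta1, skeletal actin, 1.64 compared with -2.10 to -1.58. Neither gene was called over the 6 mice, and without mouse 34 both were called lower (-1.55 and -1.93, adjusted p = 3.4e-05 and 9.0e-06). The ratios of Gstm4, a glutathione transferase, and Mpp7 were high in mouse 27 alone (5.02 and 5.26), on spots with the neighbouring feature numbers 36809 and 36808 that the scanner software marked as outliers, and 4 other probes of Mpp7 lay between 0.09 and 1.32 in that mouse. The call of Mpp7 between lung and liver (adjusted p = 0.042) was lost with the mouse as a block (adjusted p = 0.071), and that against the reference with the slide as a block (adjusted p = 0.066).

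Some airway genes were also lowest on the second slide, and others were not. Mice 27 and 29 both lay below all others for 11 of 20 tested ciliated cell genes and 4 of 12 club cell genes, compared with 1 of 24 endothelial and 0 of 13 type 2 cell genes. The pattern was not particular to airway genes. It also held for 7 of 20 antioxidant, 5 of 14 glycolysis, 3 of 5 hepatocyte and 6 of 10 skeletal muscle genes, but 0 of 39 cell division genes. Its share over all genes was not counted. The secreted airway proteins Bpifb1 and Bpifa1 had 0.70 and 3.49 in mouse 27 and 0.86 and 4.00 in mouse 29, compared with 2.64 to 3.30 and 4.90 to 5.54 in the others. The call of Bpifb1 against the reference (adjusted p = 0.015) was lost without mouse 24, 32 or 34 (adjusted p = 0.052 to 0.054). Ltf, lactoferrin, had 1.78 and 1.94 compared with 3.50 to 4.85. The median of the ciliated cell genes was 1.69 and 1.54 in these mice and 2.08 to 2.34 in the others, whereas that of the club cell genes (4.84 and 5.09, compared with 4.95 to 5.29) and that of the type 2 cell genes (3.45 and 3.53, compared with 3.50 to 3.56) overlapped between the slides. With 2 mice per slide, slide and mouse cannot be told apart, and the part of tissue sampling in these differences was not tested. With both mice left out 5188 probes were called in place of 5237.

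**Figure D5:**
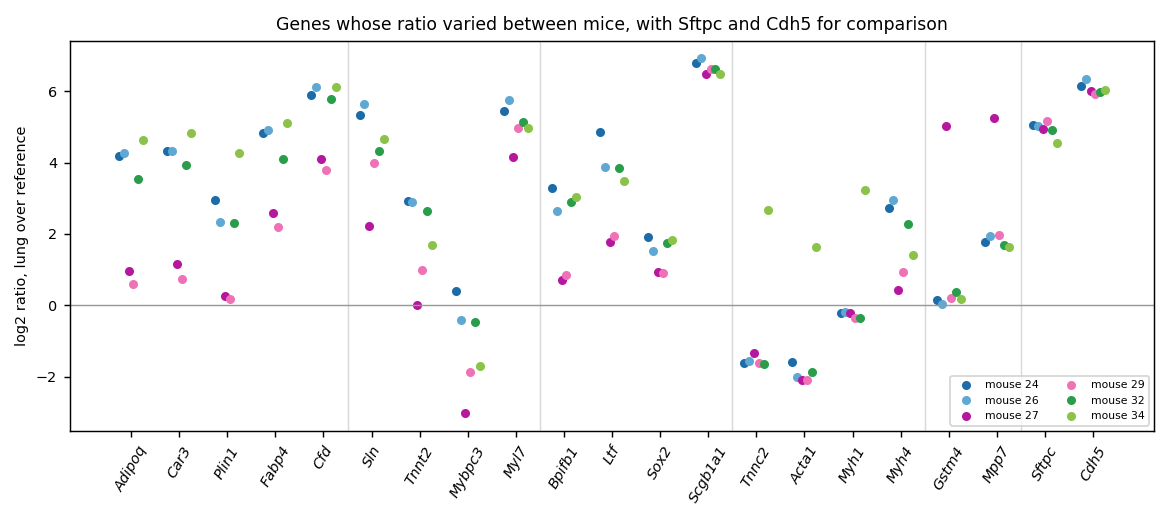
Log2 ratio of lung over reference RNA (y axis) in each of the 6 mice for chosen genes of fat cells, heart muscle, airway, skeletal muscle and 2 outlier-marked spots, separated by grey lines, with Sftpc and Cdh5 at the right. Mice 27 and 29 are lowest for the fat genes and for Bpifb1, Ltf and Sox2, and mouse 34 is highest for Tnnc2, Acta1 and Myh1 but not for Myh4, while Sftpc stays between 4.55 and 5.15 and Cdh5 between 5.93 and 6.33.

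Enzymes that detoxify oxidants did not share a direction, with 5 of 20 higher and 4 lower than the reference. Of all genes 13.8% were higher and 11.6% lower, and the small counts of this paragraph are to be read beside these shares. Gpx3, a secreted glutathione peroxidase (3.46 ± 0.26), and Prdx6, a peroxiredoxin that also acts on surfactant lipid (2.56 ± 0.16), were highest. Prdx4 (-2.03 ± 0.14) and Nqo1, a quinone reductase (-2.12 ± 0.40), were lowest. Of 14 immediate early genes, which respond within minutes to a stimulus, 4 were lower, with Egr1 at -2.45 ± 0.20, and Dusp1 was higher (1.55 ± 0.36), a call lost after median centring (adjusted p = 0.61). Of the genes used as references in PCR, 2 of 11 were called, Ppia (-1.43 ± 0.13) and Gusb (-1.45 ± 0.11), both lower, although another probe of Gusb lay above 0. Hprt had -0.23 ± 0.10 and Actb 0.55 ± 0.14 in lung, and Actb was 2.26 higher in lung than in liver (SE 0.11, adjusted p = 1.0e-08). No probe was named Gapdh by the matching used here, and probes that list its transcript carry the names of close copies.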

How the data were processed

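Total RNA of 1 lung piece per mouse was amplified from 250 ng, labelled with Cy5 and hybridized with Cy3-labelled universal mouse reference RNA to 2-color 60-mer arrays with 4 arrays per slide. The authors deposited the scanner output of each array as median, background and processed intensity values, with flags for spots well above background (Feature Extraction 9.5.3.1 for lung and 10.1.1.1 for liver, per the file headers). They also deposited a table of LOWESS-normalized log2 ratios, Cy5 over Cy3, without background subtraction, which gave the values used here. Its columns correlated with ratios of the scanner intensities at 0.929 to 0.993 in lung and 0.936 to 0.966 in liver, and its direction is that of Cy5 over Cy3. Array medians lay between -0.031 and -0.024 in lung. The study removed outlier arrays after clustering, and these were not analysed here.

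The arrays hold 43379 spots other than controls for 41174 probes. Spots were named through accession (24913), symbol (6857) or synonym (3127) in the gene table of RefSeq, and 8482 stayed without a name. Spots of a probe were averaged, and a gene with several probes was represented by the probe with the highest mean signal over both channels. Other probes of a gene could give quite different ratios. Of 5855 genes with several tested probes 5 were called in both directions. Probes well above background on all 6 arrays in Cy5 or in Cy3 were tested. The mean ratio of the 6 arrays was tested with limma 3.58.1 in R 4.3.3 (lmFit with an intercept, then treat at 2-fold, two-sided, Benjamini-Hochberg, threshold 0.05), and lung minus liver over 6 and 8 arrays in the same way, the reference and the dye of a probe being common to both. The reference was 1 pool, so p-values cover the spread between mice and not that of the reference. The number of arrays limits the precision. The fits were tested on simulated data. Other tools were statmod 1.5.0, jsonlite 2.0.0, version 1.17.8 of data.table and matplotlib 3.10.9.

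Bounds use median signals without background correction after loess and Aquantile: the mean of the bright channel against, per array, the higher of the lowest signal among probes well above background and the dim signal itself. Where the mean ratio gave a smaller fold, it is printed instead. Mouse numbers in the labels pair lung and liver of 6 animals. The deviations of a lung from the lung mean and of its own liver from the liver mean correlated at -0.06 to 0.19 over 18757 probes, and lungs 26 and 27 each correlated best with the liver of the other number (0.16 and 0.07). Alternatives were other normalizations, signals, filters and flags, leaving out arrays, slide and mouse as blocks, and 1 value per gene.

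The named genes were the 12 highest and 12 lowest called genes well above background in both channels, the 6 highest bounds in each direction, the 2 highest and 2 lowest of each list, Hprt, Actb and Gapdh, and the 8 genes with the highest SD over mice. A result under this rule is not reported here. Further list members were named after their values were seen, as were the Hox, fat cell, skeletal muscle and sex chromosome genes. The 24 lists were chosen with earlier results of these data known, and the same holds for the choice of these arrays. Promoters come from RefSeq (GRCm38.p6).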

Additional observations from a re-analysis of the deposited data

Results flagged for a closer look

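In 8 of 156 named genes (5.13%) 1 mouse lay far from the other 5 (Dixon's ratio of the gap to the range above its 95% critical value for 6 samples). Some of these genes were named for their high SD over the same mice and others after their values were seen. The share can therefore not be set against a chance rate. Mouse 27 had 5.02 for Gstm4 (others 0.03 to 0.37) and 5.26 for Mpp7 (others 1.64 to 1.98), both on spots carrying the scanner software's outlier mark. Mouse 34 had 2.69 for Tnnc2 (others -1.63 to -1.33) and 1.64 for Acta1 (others -2.10 to -1.58). Nqo1 was -1.30 in mouse 32 (others -2.34 to -2.20) and Acta2 0.093 in mouse 24 (others -0.78 to -0.46). Smaller gaps separated mouse 26 for Dynlrb2 (4.76, others 4.40 to 4.52) and mouse 27 for Ebp (0.88, others 0.52 to 0.64).

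For 7 of the named genes every lung lay on one side of the reference and every liver on the other, more than 2-fold away in both organs, with the difference between the organs called by limma. Lung was above and liver below for Chil3 (difference 9.36), Cav1 (8.03), Cbr2 (7.73), Aqp5 (6.45), Napsa (6.01) and Cnn1 (5.20). Lung was below and liver above for Cyp51 (-3.32). Some of the 7 were named after their values were seen, and the share over all genes by the same rule was not counted. A looser rule asked for means on opposite sides, a call in lung and a call between the organs. By it 621 of 14163 genes had lung above and liver below, and 140 the reverse, so such genes are not rare.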

How the results depend on the processing

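Against the reference no named gene changed sign under any normalization, outlier flag, slide block or left-out array tried for the 149 tested genes named in the text. Of their 1937 repeated results 28 lost a call while 16 gained one. The detection filters were varied only for the counts of probes. Apart from genes whose loss of a call is given above, calls were lost after median centring for H2-DMa, Hoxa4 and Xist (adjusted p = 0.41, 0.094 and 0.27), after normexp for Hoxd4 (adjusted p = 0.12) and with processed signals for Col1a2 (adjusted p = 0.11). The number of probes called against the reference (5237) rose to 9729 on processed signals of the scanner software and to 22155 against no difference at all, and with 1 value per gene 3172 genes were called. Between lung and liver (5937 probes) the same settings gave 9468, 21634 and 3695. Leaving out 1 lung array gave 4992 to 5205 and 5794 to 5870 probes. Within slides 1, 2 and 3, respectively, 4589, 4829 and 5392 probes were called, and 5013 with the slide as a random block. With the replicate number (mouse) as a block 5845 probes were called between lung and liver, 5727 of them shared with the fit without it, and the block changed no call of a named gene other than Tie1 and Mpp7 above. With mouse as a random effect 5999 probes were called, and no call of a named gene changed. Median centring moved the median difference between lung and liver from 0.02 to 0.36. Probes seen in lung only numbered 556 with the less strict detection flag of the scanner software and 2500 when 4 of 6 arrays sufficed (1280 in the text), and those seen in the reference only 181 and 1218 (535). The cause of these changes was not tested. Dim probes limit the precision, since a ratio near background depends on the background correction.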

Other observations

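Genes of the sex chromosomes, chosen after their values were seen, separated the female lungs from the reference. The Y-linked genes Ddx3y, an RNA helicase, and Eif2s3y, a translation factor subunit, were well above background in the reference on all 6 arrays and in lung on none, at least 3.11-fold and 4.30-fold lower in lung. Their ratios ran from -2.16 to -1.56 and from -2.74 to -2.08 in lung and from -1.77 to -1.29 and from -1.89 to -1.54 in the 8 livers. Kdm5d, a Y-linked histone demethylase, was also not well above background in lung on any array (-0.77 ± 0.18), and Uty was not well above background in either channel on any array. Xist, the RNA of the inactive X chromosome, had 1.78, 2.31, 1.20, 1.88, 1.76 and 1.73 in mice 24, 26, 27, 29, 32 and 34, although the lowest of its 3 other probes lay at -0.07. Its mean in liver was 1.52 ± 0.22 (n = 8).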
